A study of Rattus norvegicus with 12 samples.

Results

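Matrix metalloproteinases, the related ADAMTS proteases and the ADAMTS-like proteins were followed together with the tissue inhibitors of metalloproteinases in rat skull bone after surgery. Members were all probes whose gene name on the array is Mmp, Timp, Adamts or Adamtsl followed by a number. The rule took 75 of 45598 rat probes and 49 genes: 23 Mmp, 18 Adamts, 4 Adamtsl and 4 Timp genes. After probes that were rarely above background had been left out, 52 probes of 35 of these genes remained, among 27194 probes and 16381 named genes in all.

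The rats were 10 weeks old and the calvaria was sampled 24 h after surgery. A rectangle of 8 by 3 mm was cut into the bone either with a bur, fed at about 0.75 mm/s, or with an Er:YAG laser. The laser made 3 strokes at 20 Hz with an output of 127 mJ per pulse, fed at about 2 mm/s. Control calvaria lost its periosteum and was not cut, so all 3 groups had been opened surgically. Each group had 4 single-colour arrays, each labelled with Cy3 from 200 ng of total RNA. The sources used here name no strain, sex or genetic change, and leave unsaid whether each array stands for its own rat. The p-values therefore measure only how far these arrays spread, which may be technical.

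Matrix metalloproteinases are zinc-dependent enzymes that cut collagens and other components of the extracellular matrix, and bone cells, fibroblasts and leukocytes make them during repair. Most are secreted as inactive precursors and are switched on by other proteases, among them plasmin, while TIMPs bind and block the active enzymes. ADAMTS proteases share the metalloproteinase core and carry thrombospondin repeats; several cut the large proteoglycans aggrecan and versican, others process procollagen. ADAMTS-like proteins resemble them without the protease domain.

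Of the members' promoters, 39 were matched by symbol to the RefSeq windows of build GRCr8. Those of Adamts5, Adamts15, Adamts16, Adamts19, Mmp2, Mmp9, Mmp14, Mmp16, Mmp17 and Mmp19 were not matched. The 250 bases upstream of each start were searched on both strands for the letters TGANTCA, which AP-1 transcription factors bind, and on the gene's strand for TATAAA; these letters cannot overlap. The AP-1 letters were found for 7 of the 39 genes, and for 6.99% of the 27457 genes with a window. All 7 belonged to the Mmp genes that lie together on chromosome 8, of which 7 of 10 held the letters (Mmp1, Mmp3, Mmp7, Mmp10, Mmp12, Mmp13 and Mmp20). None of the 29 other matched members held them. Each of the 7 also held TATAAA, while 0.892% of all genes held both, in the same or in different windows. Windows of the chromosome 8 genes had a median GC content of 41.4%, against 66.0% in the other members. These are matches of letters, not measured binding.

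The windows from 100 to 21 bases before the start are printed for the 3 genes of this group that could be tested, since genes of AP-1 subunits are described below beside them. Those of Mmp8, from the same stretch of chromosome 8, and of Timp2 and Mmp15, whose calls between laser and bur held in every alternative tried, are given for contrast. They are written 5′ to 3′ on the gene's strand, and capitals mark the AP-1 and TATA letters.
Mmp3, chr8:12925181-12925260, plus strand: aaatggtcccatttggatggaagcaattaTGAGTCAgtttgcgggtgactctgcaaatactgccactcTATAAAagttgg
Mmp12, chr8:12866552-12866631, plus strand: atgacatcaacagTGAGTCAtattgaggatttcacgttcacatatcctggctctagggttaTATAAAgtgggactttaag
Mmp13, chr8:12782729-12782808, plus strand: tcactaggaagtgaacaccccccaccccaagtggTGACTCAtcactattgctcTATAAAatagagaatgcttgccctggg
Mmp8, chr8:13008790-13008869, plus strand: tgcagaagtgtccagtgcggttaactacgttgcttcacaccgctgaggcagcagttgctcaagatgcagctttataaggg
Timp2, chr10:104089235-104089314, minus strand: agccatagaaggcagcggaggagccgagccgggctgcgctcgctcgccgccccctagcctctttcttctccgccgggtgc
Mmp15, chr19:9691021-9691100, minus strand: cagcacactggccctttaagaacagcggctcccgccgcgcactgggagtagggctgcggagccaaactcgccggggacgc
The AP-1 letters began at base -71 in Mmp3, -87 in Mmp12 and -66 in Mmp13. The TATA letters began at -32, -39 and -47 in the same genes, so the AP-1 letters lay farther upstream in each.

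Levels are log2 of the array's processed signal after quantile normalization, a relative scale on which 1 unit is a factor of 2. They are compared between groups for the same probe and never between genes. A difference was called at an adjusted p below 0.05 from limma, adjusted by Benjamini-Hochberg over all 16381 genes. All laser arrays lay on one slide and all bur and control arrays on another, so slide and laser treatment cannot be told apart. On their shared slide, bur arrays filled one column of positions and control arrays the other, so column and bur treatment cannot be told apart either. Laser arrays were also brighter before normalization, with 67.3% to 71.8% of spots well above background, against 56.7% to 59.7% on bur and 57.0% to 64.2% on control arrays. The summed signal of neural markers was 11332 on control 1 and 6219 on control 4, and between 148 and 1121 on the other arrays; each call against control is therefore also given without these arrays. Bone cell markers were kept for 8 of 8 genes. Of the cartilage markers, Acan, Matn3 and Hapln1 were not kept.

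After bur drilling, 8 of the 35 members rose against control and none was lower at the threshold, a share of 22.9% beside 23.4% of all genes tested. Upward calls made up 13.7% of all genes and downward calls 9.74%. The 8 were Timp1, Timp2, Mmp14, Mmp19, Adamts4, Adamts9, Adamts12 and Adamtsl2. In the laser group, 13 members rose against control and none was lower at the threshold, 37.1% beside 34.4% of all genes, where 18.3% were higher and 16.2% lower. These were Mmp15, Timp1, Timp2, Mmp2, Mmp16, Mmp19, Mmp23, Adamts1, Adamts4, Adamts9, Adamts10, Adamts12 and Adamts18. Laser against bur gave 6 calls, 17.1% beside 25.8% of all genes: Mmp15, Adamts10 and Adamtsl5 were higher after laser, and Timp2, Mmp14 and Adamtsl2 lower. Adamtsl5 passed the filter on dim probes through its laser arrays alone, so that filter favoured its call; the other 5 were well above background on all 12 arrays. Over all genes 11.6% were higher and 14.2% lower there. The shares called among the members were thus near those of all genes for bur and for laser against control, and below for laser against bur. Groups did not overlap for 7 members in bur against control, for 11 in laser against control and for 7 in laser against bur, beside 23.2%, 35.2% and 33.6% of all genes. Adamtsl5 is counted in both laser comparisons, where the filter favoured its separation. Over single probes, 11 of 52 were called in bur against control, 18 in laser against control and 10 in laser against bur, beside 20.4%, 32.8% and 27.3% of all kept probes. Among the called probes, that of Adamtsl5 and one of Adamts1 had been kept through laser arrays alone. The median log2 difference of the members was 0.53, 0.62 and 0.18 in the 3 comparisons, beside 0.08, 0.01 and -0.06 over all genes. In such bulk samples, more cells of a type and more RNA per cell cannot be told apart.

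**Figure D1:**
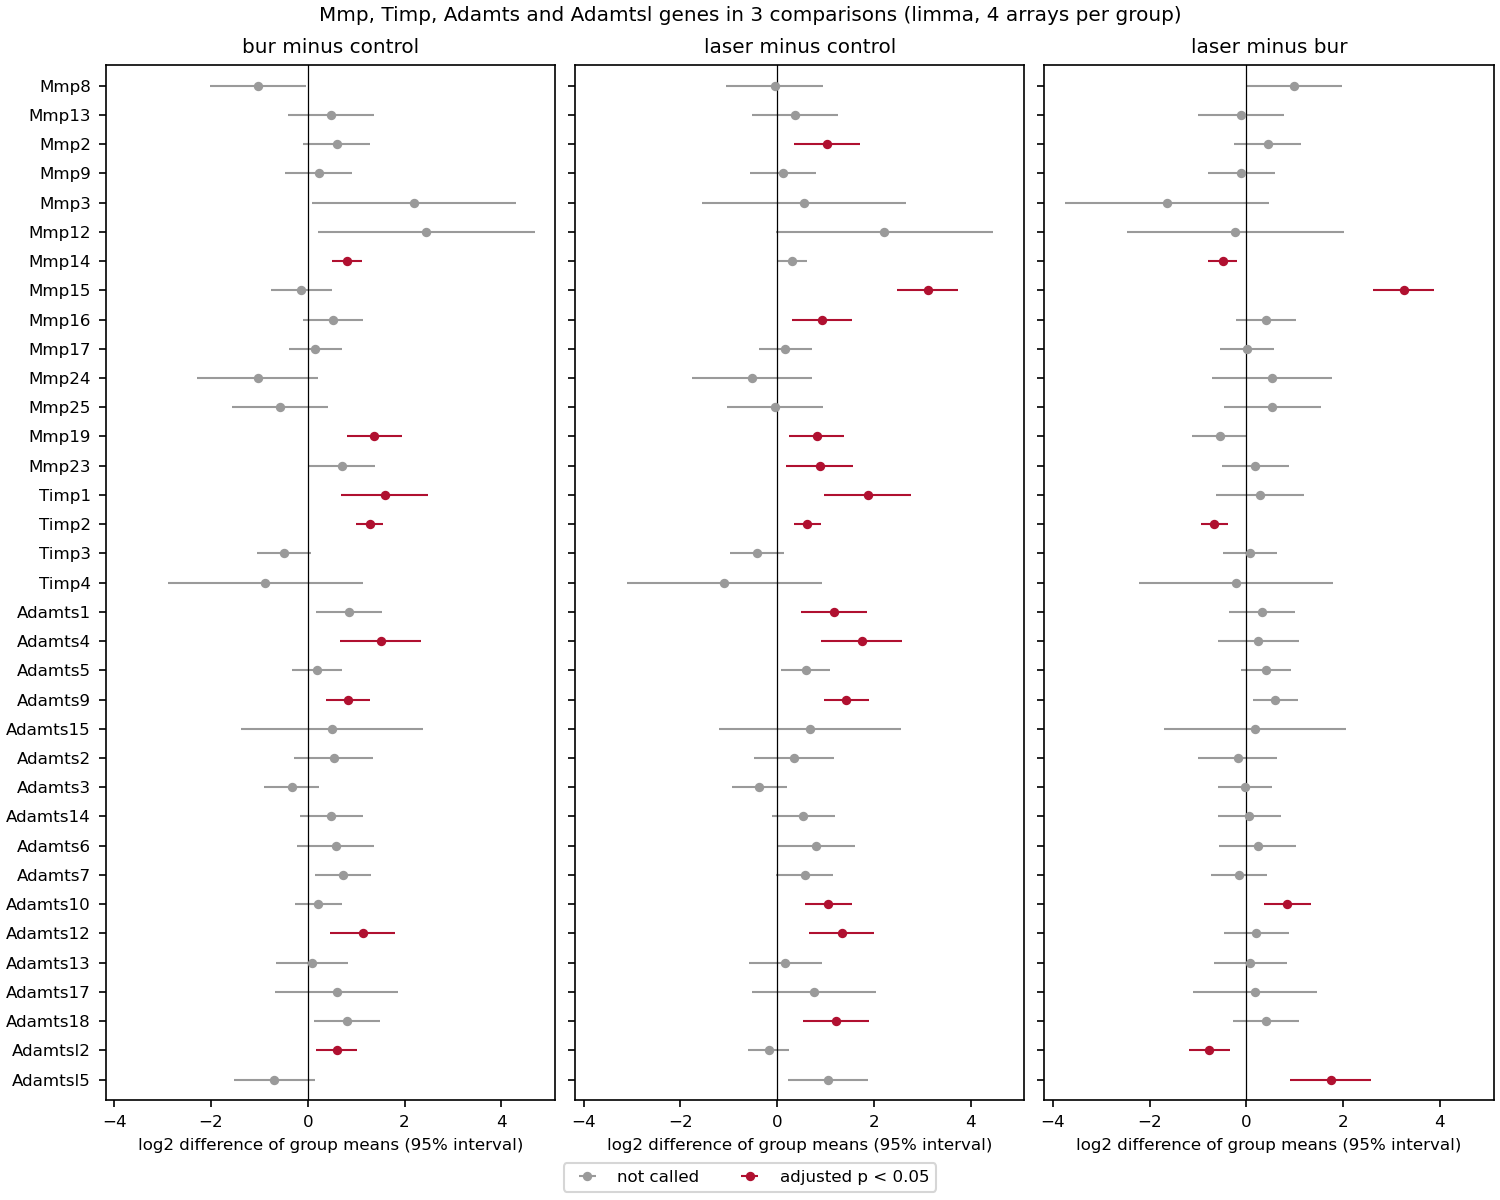
Difference of group means on the log2 scale for each of the 35 tested genes, with its 95% interval from limma, in 3 comparisons of 4 arrays per group. Red points passed an adjusted p of 0.05; Mmp15 lies at 3.11 and 3.25 in the laser comparisons and at -0.13 for bur against control, and all red points of the first and second panels lie above 0.

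The inhibitors Timp1 and Timp2 rose after both kinds of cutting, and Timp2 rose farther after the bur than after the laser. Timp1, which blocks most secreted metalloproteinases, was read by one probe at rn4 chrX:12542700-12543703. On the control arrays its level was 12.99, 13.32, 11.95 and 11.34, on the bur arrays 14.07, 13.94, 14.02 and 13.93, and on the laser arrays 14.32, 14.71, 14.65 and 13.41. All 8 arrays of cut bone exceeded all 4 controls, and the bur arrays lay within a far narrower band than the controls. The difference was 1.59 ± 0.41 (SE, log2) for bur, a 3.01-fold level (95% interval 1.61 to 5.62, adjusted p = 0.0171). For laser it was 1.87 ± 0.41, a 3.66-fold level (1.96 to 6.83, adjusted p = 0.00525). Without controls 1 and 4 the bur difference was 1.35 with an adjusted p of 0.0622, so that call was lost, while the laser call held with 1.63 and 0.0215.

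Timp2 has a double role, since it inhibits metalloproteinases and also bridges Mmp14 to the precursor of Mmp2 when that precursor is activated at the cell surface. Its probe, at rn4 chr10:108311244-108311303, gave 12.63, 12.98, 12.75 and 12.74 on control, 13.96, 14.25, 13.82 and 14.20 on bur, and 13.35, 13.45, 13.47 and 13.32 on laser arrays. The 3 groups were fully separated, with control lowest, laser between and bur highest. Bur exceeded control by 1.28 ± 0.13, or 2.43-fold (2.00 to 2.96, adjusted p = 0.000267). The laser group exceeded control by 0.62 ± 0.13, or 1.54-fold (1.27 to 1.87, adjusted p = 0.00378), and was 1.58-fold lower than bur (-0.66 ± 0.13, adjusted p = 0.00367). All 3 calls held in every alternative tried, with differences of 1.19 to 1.36 for bur and 0.53 to 0.69 for laser over control, and -0.76 to -0.60 between the treatments.

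Timp3 and Timp4 were not called in any comparison. Timp3, an inhibitor held in the matrix that also blocks ADAMTS enzymes, had a mean of 10.44 ± 0.45 (SD, n = 4) on control, 9.95 ± 0.40 on bur and 10.02 ± 0.26 on laser arrays. Its 3 probes all pointed downward against control but differed in size. The probe at rn4 chr7:19678024-19678083 was called lower after laser (-1.48 ± 0.30, adjusted p over all kept probes = 0.00355); the brightest probe, which stands for the gene, gave -0.42 ± 0.25 (adjusted p = 0.225). When the 3 probes were averaged, Timp3 was called lower after laser, at -0.87 with an adjusted p of 0.0225. Timp4 varied by more than 1 log2 unit within each group, with SDs of 1.43, 1.12 and 1.71 on control, bur and laser arrays, and its differences of -0.87 and -1.09 from control were within that spread.

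Among the membrane-bound enzymes, Mmp14 was highest after the bur and Mmp15 after the laser. Mmp14, the membrane-type enzyme that cuts fibrillar collagen and activates Mmp2, gave 11.11, 11.50, 11.28 and 11.13 on control, 12.31, 11.95, 11.85 and 12.15 on bur, and 11.60, 11.72, 11.59 and 11.38 on laser arrays. Every bur array lay above every control and laser array, whereas laser and control overlapped. Bur exceeded control by 0.81 ± 0.14, or 1.75-fold (1.41 to 2.17, adjusted p = 0.00235), and this held in every alternative, with 0.68 and an adjusted p of 0.0289 without controls 1 and 4. Laser against control gave 0.31 ± 0.14 (adjusted p = 0.104). Laser was 1.41-fold lower than bur (-0.49 ± 0.14, adjusted p = 0.0243), but leaving out bur 1, bur 4, laser 1, laser 3 or laser 4 ended that call, with adjusted p between 0.0537 and 0.0695. The second Mmp14 probe, which overlaps the first at rn4 chr15:32503002-32503061, gave 0.76, 0.22 and -0.54 in the 3 comparisons and the same calls.

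Mmp15, another membrane-type metalloproteinase, showed the largest difference of any tested member. Its single probe at rn4 chr19:10122572-10122631 read 8.16, 8.55, 7.36 and 7.90 on control, 7.38, 8.23, 7.79 and 8.05 on bur, and 11.31, 10.94, 11.57 and 10.62 on laser arrays. The lowest laser array lay more than 2 units above the highest of the other 8, while bur and control overlapped throughout. Laser exceeded control by 3.11 ± 0.29, or 8.65-fold (5.60 to 13.4, adjusted p = 2.53e-05), and bur by 3.25 ± 0.29, or 9.50-fold (6.14 to 14.7, adjusted p = 2.2e-05). Bur against control gave -0.13 ± 0.29, an interval of 0.589 to 1.41-fold. Both laser calls held in every alternative, over ranges of 2.79 to 3.30 and 2.97 to 3.41. In the authors' deposited table the same probe differed by 2.97 and 3.17. Because the gene has one probe and the laser arrays one slide, neither another probe nor another slide could be set against this difference.

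Of the other membrane-type genes, Mmp16 rose after laser, and Mmp17, Mmp24 and Mmp25 were not called. The Mmp16 arrays read 7.95, 8.72, 7.86 and 7.64 for control, 8.39, 7.93, 8.91 and 9.03 for bur, and 9.33, 8.98, 8.73 and 8.83 for laser. The lowest laser array was only just above the highest control. Against control, laser was higher by 0.92 ± 0.28, or 1.90-fold (1.23 to 2.92, adjusted p = 0.0264). The call was lost without controls 1 and 4 (0.68, adjusted p = 0.183) and on leaving out laser 1, laser 2, control 1, control 3 or control 4 (0.0531 to 0.0775). In all, 10 of 18 alternatives ended it, among them another background correction (0.58, adjusted p = 0.0662) and the mean of its probes (0.81, adjusted p = 0.0916). The other 3 Mmp16 probes differed by 0.50 to 0.94 and were not called. One of the 3 Mmp25 probes, at rn4 chr10:12903968-12904027, was called higher after laser (2.06 ± 0.50, adjusted p = 0.00858), although it was well above background on only 3 control arrays and 1 bur array, and the brightest gave -0.04 ± 0.45 and the last 0.19 ± 0.75.

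**Figure D2:**
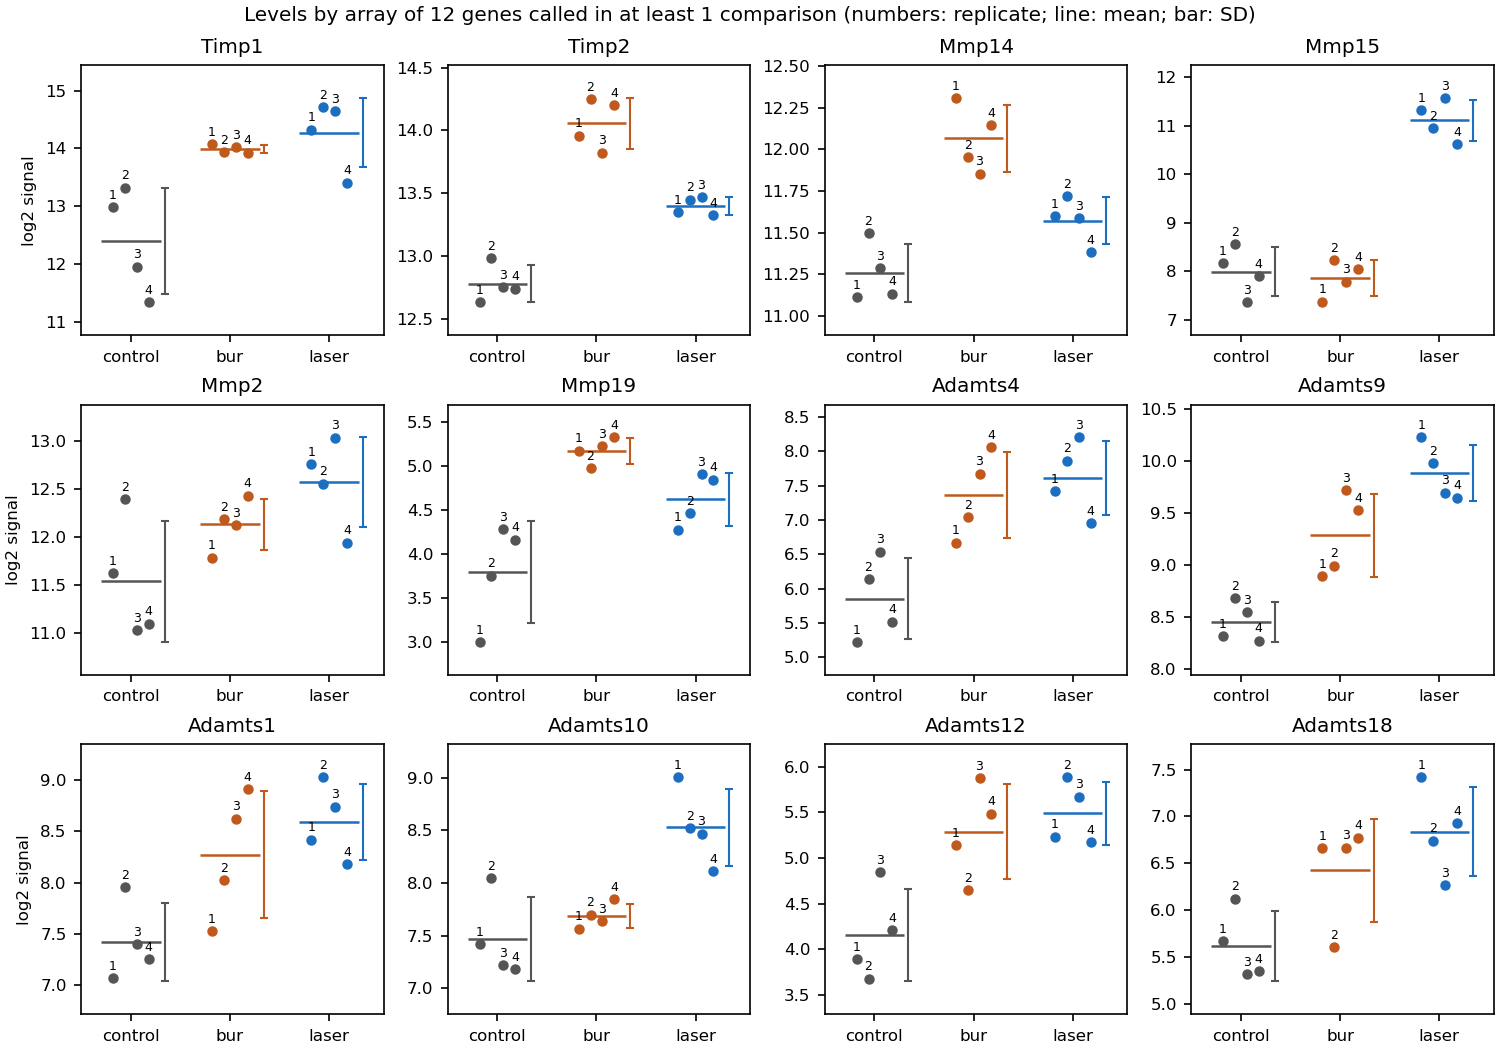
Level (log2 signal) on each of the 12 arrays for 12 genes called in at least 1 comparison, by group; the figure beside a point is the replicate number, the line the group mean and the bar its SD. For Timp2 the groups do not overlap, and for Mmp15 the laser arrays (10.62 to 11.57) stand apart from the other 8 (7.36 to 8.55).

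The gelatinases Mmp2 and Mmp9 cut denatured collagen and basement membrane. Mmp2 ranged from 11.03 to 12.39 on control, from 11.78 to 12.43 on bur and from 11.94 to 13.03 on laser arrays, so laser and control overlapped. After laser the level was higher than control by 1.03 ± 0.31, or 2.05-fold (1.27 to 3.30, adjusted p = 0.0256), and a second probe gave 1.13 (adjusted p = 0.0278). The call was lost without controls 1 and 4 (0.86, adjusted p = 0.142) and on leaving out control 3, control 4, laser 1, laser 2 or laser 3 (0.0551 to 0.0713). Bur against control gave 0.59 ± 0.31 (adjusted p = 0.194), which became a call of 0.88 (adjusted p = 0.0390) without control 2. Mmp9, which neutrophils and osteoclasts make in quantity, had means of 9.18 ± 0.71, 9.40 ± 0.20 and 9.30 ± 0.36 (SD, n = 4 each) on control, bur and laser arrays. Its differences from control were 0.22 ± 0.31 and 0.12 ± 0.31, with intervals of 0.727 to 1.87-fold and 0.677 to 1.75-fold.

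No collagenase or stromelysin was called. Mmp13, the collagenase of bone and cartilage, lay between 11.86 and 12.81 on control, 12.37 and 13.39 on bur, and 11.63 and 13.65 on laser arrays, and the groups overlapped in part: 2 bur and 2 laser arrays exceeded every control. Its differences from control were 0.48 ± 0.40 for bur (0.755 to 2.58-fold) and 0.37 ± 0.40 for laser (0.700 to 2.40-fold). Mmp8, the collagenase stored in neutrophil granules, had means of 8.35 ± 0.70 on control, 7.32 ± 0.98 on bur and 8.30 ± 0.19 on laser arrays. Bur against control gave -1.03 ± 0.45 (adjusted p = 0.123). Bur 4 was the lowest array for it, at 5.96. Neutrophil markers were called in no single direction after bur, with 1 of 9 higher and 1 lower, and their summed signal was 39107 to 65854 on bur and 58403 to 81582 on control arrays. Their part in the Mmp8 values was not tested. The other collagenase genes, Mmp1 and Mmp1b, were well above background on 0 arrays and on 1 array.

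The stromelysin Mmp3 activates other metalloproteinases and cuts many matrix proteins. Its arrays read 6.72, 8.27, 7.49 and 6.55 for control, 10.10, 10.17, 7.28 and 10.26 for bur, and 4.84, 9.02, 9.26 and 8.12 for laser. On 3 bur arrays it was above every control, and bur 3 fell among the controls. With all 4 bur arrays the difference from control was 2.19 ± 0.96 (1.06 to 19.8-fold, adjusted p = 0.122), and without bur 3 it was 2.92 with an adjusted p of 0.0456. The second Mmp3 probe gave 2.80 ± 0.96 (adjusted p over all kept probes = 0.0612), and the authors' deposited table gave 1.97 for that probe with an adjusted p of 0.0337. Laser against control gave 0.55 ± 0.96 (0.339 to 6.35-fold). Mmp12, the elastase of macrophages, had means of 2.87 ± 1.71, 5.32 ± 1.33 and 5.09 ± 1.75 on control, bur and laser arrays and was well above background on 2, 3 and 4 of them. Its differences of 2.45 ± 1.02 and 2.22 ± 1.02 did not pass (adjusted p = 0.105 and 0.115), but without laser 3 the laser difference was 2.98 with an adjusted p of 0.0429. Array weights also gave a call after laser (3.33, adjusted p = 0.0293). The authors' deposited table gave the same probe smaller differences, 0.79 after bur and 0.81 after laser. Their adjusted p was 0.0390 and 0.0289 there, by a test not stated in the sources used here. Refitted with limma, the authors' log2 values called Mmp12 in neither comparison.

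**Figure D3:**
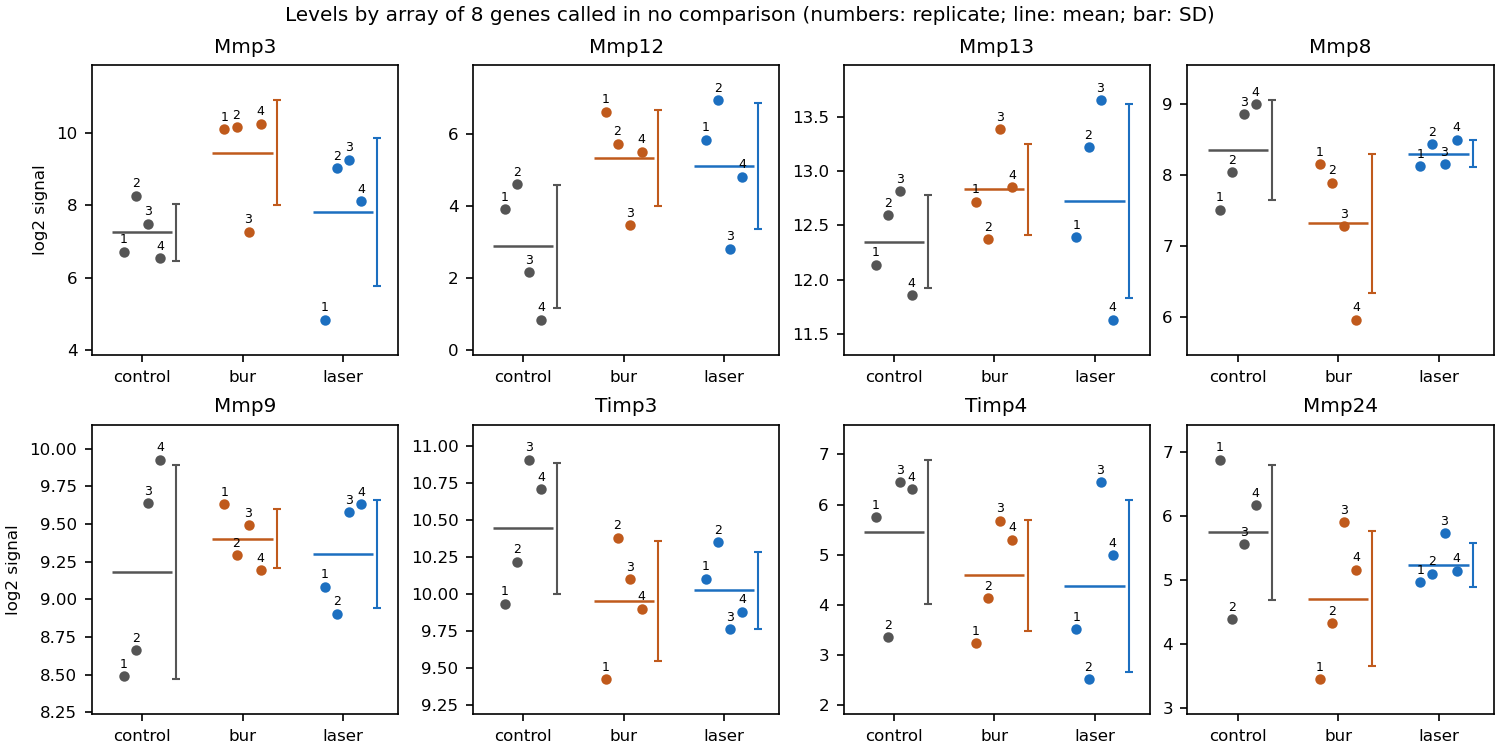
Level (log2 signal) on each of the 12 arrays for 8 genes called in no comparison, with the replicate number beside each point, the group mean as a line and the SD as a bar. For Mmp3, bur 3 (7.28) lies apart from the other bur arrays (10.10 to 10.26), and for Mmp13 the ranges of the groups overlap.

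Of the remaining metalloproteinases, Mmp19 rose after both treatments and Mmp23 after laser. Mmp19, a secreted enzyme that cuts basement membrane proteins, was dim, at 3.00, 3.76, 4.28 and 4.16 on control, 5.17, 4.97, 5.22 and 5.32 on bur, and 4.28, 4.46, 4.90 and 4.84 on laser arrays; only 2 control arrays were well above background. All bur arrays exceeded the other 8, while laser 1 met control 3. Bur exceeded control by 1.37 ± 0.26, or 2.59-fold (1.75 to 3.83, adjusted p = 0.0036), in every alternative. The difference of laser from control was 0.82 ± 0.26 (1.77-fold, adjusted p = 0.0302), a call that was lost without controls 1 and 4 (0.60, adjusted p = 0.0781) and on leaving out control 2, laser 3 or laser 4 (0.0558 to 0.0786). In all, 9 of 17 alternatives ended it. Among them were another background correction (0.20, adjusted p = 0.0772) and 75th percentile scaling (0.64, adjusted p = 0.0658). Mmp23, a membrane-anchored enzyme without a hemopexin domain, reached 0.88 ± 0.32 after laser with an adjusted p of 0.0496. Leaving out any laser array or control 1, 3 or 4 ended that call (0.0584 to 0.124), as did leaving out controls 1 and 4 together (0.62, adjusted p = 0.283). In all, 13 of 18 alternatives ended it, among them 75th percentile scaling (0.76, adjusted p = 0.0799) and the replicate block (0.88, adjusted p = 0.0797). Bur against control gave 0.70 ± 0.32 for Mmp23 (adjusted p = 0.132), and 0.98 with an adjusted p of 0.0273 without control 2. It was also called with another background correction (0.78, adjusted p = 0.0418) and with limma on the authors' values (0.87, adjusted p = 0.0309). These were 3 of 18 alternatives.

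Of 5 tested ADAMTS enzymes that cut aggrecan and versican, 2 were called after bur and 3 after laser, all higher, beside 23.4% and 34.4% of all genes. Their median differences were 0.83 and 1.17. Adamts4, an aggrecanase, read 5.23, 6.14, 6.54 and 5.52 on control, 6.67, 7.04, 7.67 and 8.06 on bur, and 7.42, 7.86, 8.20 and 6.95 on laser arrays, with no overlap between cut and uncut bone. It rose by 1.51 ± 0.38 after bur, or 2.84-fold (1.59 to 5.08, adjusted p = 0.0156), and by 1.75 ± 0.38 after laser, or 3.37-fold (1.89 to 6.02, adjusted p = 0.00505). Without controls 1 and 4 both calls were lost, at 1.02 (adjusted p = 0.148) and 1.27 (adjusted p = 0.0584).

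Adamts9, which cuts versican, was at 8.31, 8.68, 8.55 and 8.27 on control, 8.90, 8.99, 9.72 and 9.53 on bur, and 10.23, 9.98, 9.69 and 9.65 on laser arrays. The controls lay below all 8 arrays of cut bone. The rise was 0.83 ± 0.21 for bur, or 1.78-fold (1.29 to 2.44, adjusted p = 0.0152), and 1.43 ± 0.21 for laser, or 2.70-fold (1.96 to 3.71, adjusted p = 0.000487). The laser call held in every alternative, and the bur call was lost without controls 1 and 4 (0.67, adjusted p = 0.126). Laser against bur gave 0.60 ± 0.21 with an adjusted p of 0.0549. That difference was called at 0.75 (adjusted p = 0.0263) without bur 3. Of 17 alternatives, 6 called it. With all arrays these included another background correction (0.57, adjusted p = 0.0300), 75th percentile scaling (0.65, adjusted p = 0.0382) and array weights (0.57, adjusted p = 0.0330).

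Adamts1, another protease of versican and aggrecan, read 7.07, 7.95, 7.40 and 7.26 on control, 7.53, 8.03, 8.62 and 8.91 on bur, and 8.42, 9.03, 8.74 and 8.18 on laser arrays. All laser arrays exceeded the controls, while bur 1 fell among them. Laser exceeded control by 1.17 ± 0.31, or 2.26-fold (1.41 to 3.62, adjusted p = 0.0135), but not at the threshold without controls 1 and 4 (0.92, adjusted p = 0.113). Bur gave 0.85 ± 0.31 (adjusted p = 0.0674), which was called without bur 1 (adjusted p = 0.0224) and without control 2 (adjusted p = 0.0420). Of 18 alternatives, 5 called it, among them another background correction (0.69, adjusted p = 0.0475) and limma on the authors' values (0.83, adjusted p = 0.0430). A second Adamts1 probe, at rn4 chr11:25434208-25434267, was well above background on the 4 laser arrays alone, where it was at least 2.94-fold higher than control and at least 2.64-fold higher than bur. It was kept only through those arrays, so these values describe the probe and lend the first one no support. Adamts5 and Adamts15 were not called. Adamts5 gave 0.59 ± 0.23 after laser (adjusted p = 0.0713), and 0.76 with an adjusted p of 0.0255 without control 3. It was also called with another background correction (0.30, adjusted p = 0.0250) and with limma on the authors' values (0.51, adjusted p = 0.0239). These were 3 of 18 alternatives.

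Of the procollagen N-proteinases Adamts2, Adamts3 and Adamts14, which trim the amino end of fibrillar procollagens, none was called. Their differences ran from -0.33 to 0.53 after bur and from -0.36 to 0.54 after laser.

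Among the other Adamts genes, 1 of 7 was called after bur and 3 of 7 after laser, 14.3% and 42.9% beside the same shares of all genes. Adamts12, which cuts cartilage oligomeric matrix protein, read 3.89, 3.68, 4.84 and 4.21 on control, 5.14, 4.65, 5.87 and 5.49 on bur, and 5.24, 5.89, 5.67 and 5.17 on laser arrays. Only bur 2 fell within the range of the controls, of which 3 were well above background. It rose by 1.13 ± 0.31 after bur (2.19-fold, adjusted p = 0.0213) and by 1.34 ± 0.31 after laser (2.53-fold, adjusted p = 0.00673). Leaving out control 1, control 2, bur 3 or bur 4 ended the bur call (0.0533 to 0.0583), and leaving out controls 1 and 4 ended both (1.03, adjusted p = 0.125, and 1.23, adjusted p = 0.0523). Of 17 alternatives, 7 ended the bur call, among them 75th percentile scaling (0.79, adjusted p = 0.0751).

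Adamts10, which associates with fibrillin microfibrils, gave 7.42, 8.05, 7.22 and 7.18 on control, 7.57, 7.70, 7.64 and 7.84 on bur, and 9.01, 8.52, 8.47 and 8.11 on laser arrays. The laser arrays lay above the other 8, although laser 4 was close to control 2. Laser exceeded control by 1.06 ± 0.22, or 2.09-fold (1.49 to 2.92, adjusted p = 0.00398), in every alternative, and bur by 0.84 ± 0.22, or 1.79-fold (adjusted p = 0.0172). Without laser 1 the difference from bur was 0.68 with an adjusted p of 0.0510. Its second probe, at rn4 chr7:16059606-16059664, went another way. That probe was called higher after bur (0.86 ± 0.25, adjusted p = 0.0305), and gave 0.52 ± 0.25 for laser against control and -0.34 ± 0.25 for laser against bur, neither of them called. When the probes were averaged, laser exceeded bur by 0.25 (adjusted p = 0.456).

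Adamts18 read 5.67, 6.12, 5.32 and 5.35 on control, 6.66, 5.61, 6.67 and 6.77 on bur, and 7.42, 6.74, 6.27 and 6.93 on laser arrays. The laser arrays lay above the controls, and bur 2 lay among the controls. The laser rise over control was 1.22 ± 0.31, or 2.33-fold (1.46 to 3.74, adjusted p = 0.0111), and by 1.12 (adjusted p = 0.0735) without controls 1 and 4. Bur gave 0.81 ± 0.31 (adjusted p = 0.0805), and 1.08 with an adjusted p of 0.0191 without bur 2. The second Adamts18 probe, at rn4 chr19:43722339-43722398, was called higher after both, by 1.65 ± 0.36 after bur and 2.52 ± 0.36 after laser (adjusted p over all kept probes = 0.00912 and 0.000392). Adamts17 was not called by its brightest probe, which gave 0.77 ± 0.58 after laser; its other probe gave 1.33 ± 0.45 (adjusted p over all kept probes = 0.0430). Without control 2 the brightest Adamts17 probe gave 1.37 after laser (adjusted p = 0.0324). Adamts6, Adamts7 and Adamts13 were not called, with differences of 0.09 to 0.73 after bur and 0.17 to 0.81 after laser. Adamts7 was called after bur without control 2 (0.89, adjusted p = 0.0413), and Adamts6 after laser without laser 4 (1.07, adjusted p = 0.0457). Another background correction and array weights also gave the Adamts7 call after bur (adjusted p = 0.0286 and 0.0442). In the authors' deposited table, by a test not stated, Adamts7 had 0.77 after bur and 0.61 after laser (adjusted p = 0.0149 and 0.0330). Adamts6 had 0.42 there after laser (adjusted p = 0.0119). Refitted with limma, the authors' log2 values gave a call for Adamts7 after bur (adjusted p = 0.0211). They gave none for Adamts7 or Adamts6 after laser. Array weights called Adamts6 after laser (1.19, adjusted p = 0.0206).

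**Figure D4:**
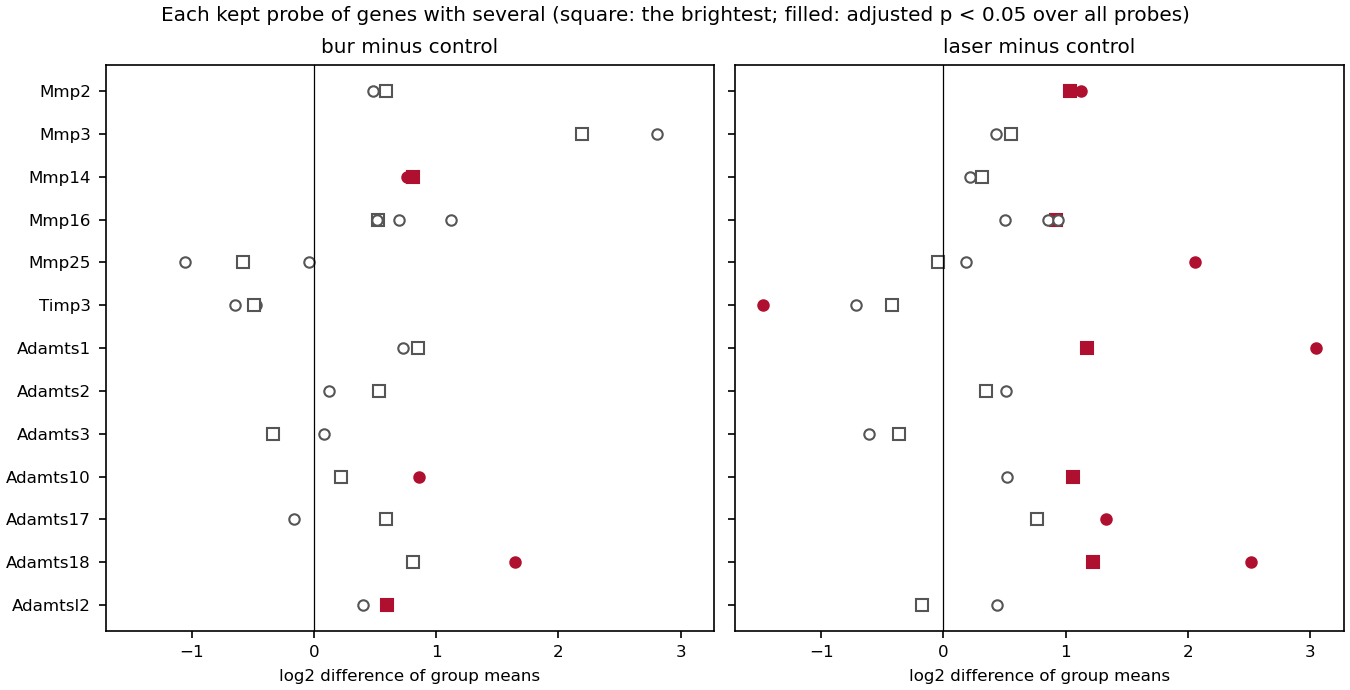
Difference from control on the log2 scale for every kept probe of the 13 genes read by several probes, after bur and after laser; the square is the brightest probe, which stands for the gene, and filled symbols passed an adjusted p of 0.05 over all kept probes. Probes of Mmp2 and Mmp14 lie close together, while those of Adamts10, Adamts18, Mmp25 and Timp3 are far enough apart to differ in call.

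Adamtsl2, which binds fibrillin and latent TGF-beta binding protein, was higher after bur than in both other groups. Its arrays read 5.37, 5.36, 5.33 and 4.66 for control, 5.60, 5.50, 5.87 and 6.14 for bur, and 5.12, 4.87, 4.97 and 5.08 for laser. Bur lay above both other groups without overlap. Bur exceeded control by 0.60 ± 0.19, or 1.51-fold (1.13 to 2.03, adjusted p = 0.0433), and laser was 1.70-fold lower than bur (-0.77 ± 0.19, adjusted p = 0.0133). Leaving out bur 1, bur 3, bur 4 or control 4 ended the call against control (0.0508 to 0.119), as did leaving out controls 1 and 4 (0.43, adjusted p = 0.160). Of 18 alternatives, 9 ended it, among them 75th percentile scaling (0.28, adjusted p = 0.306) and the replicate block (0.60, adjusted p = 0.0767). A second Adamtsl2 probe was well above background on the laser arrays alone and was not called; averaging both probes ended both calls (adjusted p = 0.108 and 0.235). Adamtsl5 was not well above background on any control or bur array, at 0.89, 1.47, 2.57 and 2.32 and at 2.04, 0.84, 0.83 and 0.79, and was above it on all 4 laser arrays, at 2.86, 2.60, 3.10 and 2.91. The laser arrays were all higher than the rest. Counting from the lowest signal well above background, its level after laser was at least 1.29-fold higher than after bur and at least 1.22-fold higher than in control (measured means 2.87, 1.13 and 1.82). These bounds are a description, since the probe was kept only because its laser arrays were bright. The difference of laser from bur was 1.74, and with another background correction it was 0.12 (adjusted p = 0.220), so the call was lost.

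Another 14 members could not be tested. Adamts16, Adamts19, Mmp1, Mmp11, Mmp20 and Mmp21 were well above background on 0 of 12 arrays. Adamts20, Adamtsl3, Adamtsl4, Mmp1b, Mmp7, Mmp10, Mmp27 and Mmp28 were above it on at most 2. Of the 7 genes with AP-1 letters, Mmp3, Mmp12 and Mmp13 were tested and none was called in the fit used here. In the authors' deposited table, the adjusted p was below 0.05 for one Mmp3 probe after bur and for Mmp12 after bur and laser. Refitted with limma, the authors' log2 values called Mmp3 after bur, and Mmp12 in neither comparison.

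In the list of inducers and AP-1 subunits, 9 of 13 rose after bur, 1 of 13 after laser, and 9 of 13 were lower after laser than after bur, with medians of 1.47, -0.04 and -1.29. Beside this list and those below, 13.7% of all genes were higher after bur and 18.3% after laser. Lower were 9.74% of all genes after bur, 16.2% after laser and 14.2% for laser against bur. Tnf, a cytokine that induces metalloproteinases, rose by 2.42 after bur (adjusted p = 0.000611) and gave 0.67 after laser (adjusted p = 0.125). The AP-1 subunit genes Fos and Fosl1 rose by 2.27 and 1.95 after bur (adjusted p = 0.00109 and 0.00121) and gave 0.52 and 0.27 after laser. Ets2 rose by 1.03 after bur (adjusted p = 0.00232). The chromosome 8 genes Mmp3, Mmp12 and Mmp13 had 2.19, 2.45 and 0.48 after bur and 0.55, 2.22 and 0.37 after laser, none called in the fit used here. Mmp8, from the same stretch but without the AP-1 letters, had -1.03 after bur and -0.05 after laser, also not called. Any link between the AP-1 genes and the levels of these members was not tested.

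In the plasminogen system, Plau, the urokinase activator, rose by 1.07 after bur and 1.09 after laser (adjusted p = 0.00259 and 0.0014), and its receptor Plaur by 1.15 and 0.96 (adjusted p = 0.00592 and 0.0103). Plg, plasminogen itself, rose by 1.29 after laser (adjusted p = 0.000102) and had -0.03 after bur. Among genes of activation, anchoring and inhibition, 5 of 10 rose after bur; after laser 3 rose and 1 fell. Cd44, a surface anchor of metalloproteinases, rose by 1.41 after bur (adjusted p = 0.000551) and was at -0.16 after laser. Of the cathepsins, lysosomal proteases, 4 of 5 rose after bur. Ctsl led them with 2.28 (adjusted p = 0.000256) and had 0.30 after laser, whereas Ctsk, the collagen-cutting cathepsin of osteoclasts, rose by 1.28 after laser (adjusted p = 0.000521) and had 0.02 after bur.

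Of the ADAM proteases, 4 of 9 rose after bur, and after laser 2 rose and 1 fell. Adam17, which sheds cell-surface cytokines, rose by 1.59 and 0.78 (adjusted p = 0.00109 and 0.0253). Among matrix substrates, 3 of 10 rose and 2 fell after bur, and after laser 2 rose and 2 fell. Vcan, the versican that Adamts1, Adamts4 and Adamts9 cut, rose by 2.67 after bur (adjusted p = 0.00198) and had 0.32 after laser. Adamts4 stood at 1.51 and 1.75, Adamts9 at 0.83 and 1.43 and Adamts1 at 0.85 and 1.17 in the same comparisons.

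Of the monocyte and macrophage list, 7 of 10 rose after bur and 4 of 10 after laser, beside 13.7% and 18.3% of all genes. The same shares stand beside the other lists given here. The summed signal of this list was 11204 to 21226 on control, 19525 to 25410 on bur and 17116 to 21245 on laser arrays. Fibroblast and periosteum markers rose for 4 of 6 after each treatment, with sums of 3545 to 5609 on control, 8437 to 18903 on bur and 8880 to 20742 on laser arrays. Bone cell markers rose for 1 of 8 after bur and 3 of 8 after laser. Their sums were 84993 to 164250 on control, 125486 to 194866 on bur and 162039 to 241233 on laser arrays. Osteoclast markers rose for 1 of 6 after each, with sums of 19927 to 52527, 22342 to 54063 and 30199 to 56704 in the same order. In the neutrophil list after laser, 3 of 9 rose and 0 fell, beside 18.3% and 16.2% of all genes. Of the 9 differences, 4 were above 0, and the median was -0.37. The summed signal was 108855 to 156162 on laser arrays. It was lower on every control array (58403 to 81582) and every bur array (39107 to 65854). In the muscle list 2 of 3 kept genes rose after laser, while Myh2, Myh4 and Mylpf were not kept. The sums were 153 to 202 on laser, 7.24 to 146 on bur and 6.19 to 142 on control arrays. Epidermal markers rose for 3 of 3 after laser, at sums of 72.2 to 90.9 against 44.9 to 71.7 in control, with Dsp and Lor not kept. On bur arrays these sums were 54.2 to 83.2, overlapping those on laser arrays. The part of these cell types in the levels of Timp1, Timp2, Mmp14, Mmp15 and the Adamts genes was not tested.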

How the data were processed

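Total RNA of 12 calvaria samples was read on single-colour Agilent arrays. Per the file headers, the deposited intensities are processed signals with spatial and multiplicative detrending and surrogates for low values switched on; the files also give rn4 probe positions. The submitters' processing notes name the image software as Agilent Feature Extraction, version 11.0.1.1. The authors also deposited a table of log2 values, titled as quantile normalized, and tables of log2 differences with p-values, of which 21080 entries were used here; their tests are not stated in the sources used here.

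From the processed signals, log2 values were quantile normalized over all spots with limma 3.58.1 in R 4.3.3. Control spots and spots with outlier flags were left out, and spots of a probe were averaged. A probe was kept if well above background on at least 4 of 12 arrays, and a gene was its brightest kept probe. One limma model covered all 12 arrays with 3 contrasts, tested beforehand on simulated data, and p-values were adjusted by Benjamini-Hochberg. Member genes go by the array's gene name, other genes by their RefSeq symbol (GRCr8). Levels on all arrays are given for called members whose groups do not overlap in a comparison; those of Mmp3 were added after its values were seen. In the pathway lists, at most 4 genes with the smallest p are named; 1 gene of the plasminogen list, and so that list's counts, are not reported here. The members, lists and tests were chosen with earlier results of these data known. For a gene with several promoter windows, letters in any of them were counted and the median GC content was taken. Exon and UTR placement of probes, and protein sequences, were not analysed here. The number of arrays limits the precision; 0 spots were saturated. Alternatives are given at the end: background correction, scaling, filters, probe choice, the authors' values, samples in the fit, array weights, a replicate block and arrays left out.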

Additional observations from a re-analysis of the deposited data

Results flagged for a closer look

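In 7 of 105 gene and group combinations, 1 array lay apart from the other 3, by a gap that, divided by the group's range, exceeded Dixon's 95% critical value. Chance flags about 1 in 20 such groups, and 6.67% were found here. Mmp3 was at 7.28 on bur 3, against 10.10 to 10.26 on the other bur arrays (gap over range 0.947). Adamts18 was at 5.61 on bur 2, against 6.66 to 6.77 (0.903). Adamtsl2 was at 4.66 on control 4, against 5.33 to 5.37 (0.943), and Mmp23 was at 8.66 on control 2, against 7.50 to 7.58 (0.925). On laser arrays, Adamts3 was low on laser 1, at 4.43 against 5.05 to 5.15 (0.861), and Adamts5 was high on laser 2, at 5.76 against 5.28 to 5.35 (0.872). Adamtsl5 was at 2.04 on bur 1 against 0.79 to 0.84 (0.958), all below background.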

How the results depend on the processing

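No called member changed sign under any alternative. Of the calls, 3 of 8 for bur against control (Timp2, Mmp14, Mmp19), 5 of 13 for laser against control (Timp1, Timp2, Mmp15, Adamts9, Adamts10) and 2 of 6 for laser against bur (Timp2, Mmp15) held in every alternative in which the gene could be tested. Without control 1 and control 4, the arrays with neural transcripts, 3 members were called for bur and 5 for laser against control; only 2 controls were then left, and the cause was not tested. Leaving out 1 array at a time gave 6 to 11 calls for bur, 10 to 13 for laser against control and 4 to 7 for laser against bur. Scaling to the 75th percentile moved the median of all genes for bur against control from 0.08 to -0.08 and gave 6 members higher and 1 lower, Adamtsl5 (-0.74), which is below background in both groups. Averaging probes gave 11 higher and 1 lower, Timp3, for laser against control. The replicate number as a block gave 9, 13 and 6 calls: against control it gained Mmp12 and Adamts6 in both comparisons (Mmp12 at adjusted p = 0.0194 for bur and 0.0204 for laser, limma) and lost Adamtsl2 for bur and Mmp16 and Mmp23 for laser. Only 7 of 12 pairs of same-numbered arrays had r over 0.1 (range -0.10 to 0.35) and the labels do not say what the numbers mark, so they were not taken as a pairing; that 8 of 12 arrays correlated best with their own number is a hint from the data that they may share something. Of members without a call, 9, 7 and 4 gained one under some alternative. Dim probes such as those of Mmp19, Adamts12 and Adamtsl5 are limited by background.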
